A study of Mus musculus with 4 samples.

Results

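The secreted WNT inhibitors described here are 10 genes, Sfrp1, Sfrp2, Sfrp4, Sfrp5, Frzb, Dkk1, Dkk2, Dkk3, Wif1 and Sost, chosen by symbol from the 32286 gene rows that all 4 matrices share. The rule itself uses no measured value, although the set was picked with earlier results of these data known. They were measured by single-cell RNA-sequencing of tdTom+ cells sorted from digested mouse vertebrae, in a study of the spine deformity of neurofibromatosis type 1 (NF1). Control mice carried Prss56Cre/+, R26tdTom/tdTom and Nf1+/+, and mutant mice carried Prss56Cre/Cre, R26tdTom/tdTom and Nf1fl/fl, at 3 months or at 12-16 months of age, with 1 library for each genotype and age. All mice thus carried a Prss56-driven Cre, which marks a lineage derived from boundary cap cells, neural crest derivatives at the nerve roots, and a tdTom reporter. The number of Cre alleles changed together with the Nf1 genotype, so the effects of these alleles cannot be told apart. Vertebrae T11 to L2 with detectable tdTom signal were collected. The dissection left out muscle, spinal cord and dorsal root ganglia, which was checked under a fluorescent microscope. Cells positive for CD11b, CD31 or CD45 and dead cells were discarded in the sort. The number of mice behind each library was not given in the labels, and cells of 1 library are not replicates.

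WNT proteins are secreted ligands that bind Frizzled receptors together with the co-receptors LRP5 and LRP6 and so stabilise β-catenin. Secreted inhibitors act outside the cell in 2 ways. The secreted Frizzled-related proteins (Sfrp1, Sfrp2, Sfrp4, Sfrp5 and Frzb, also called Sfrp3) and Wif1 bind WNT ligands themselves, while Dkk1, Dkk2 and sclerostin, the product of Sost, bind LRP5 and LRP6. Dkk3 is a divergent member of the Dickkopf family that does not bind LRP6 in the same way. In the skeleton, sclerostin from osteocytes and Dkk1 from osteoblast-lineage cells restrain bone formation, Frzb was first isolated from cartilage, and Wif1 is known in cartilage surface layers and in maturing osteoblasts.

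Of 2172 barcodes, 1757 cells had more than 750 unique molecular identifiers (UMIs), more than 500 genes and under 7% mitochondrial UMIs, and were kept. They numbered 717 in the 3-month control, 484 in the 3-month mutant, 135 in the 12-16-month control and 421 in the 12-16-month mutant, with medians of 8189 to 12644 UMIs a cell. No cell barcode was shared between libraries. Cells were gated by genes that are not members. Endplate cells had at least 1 Sox9 UMI and at least 3 UMIs of Zfp804b and Dab1 together (30, 142, 12 and 38 cells in the order above). Other cartilage cells had Sox9 and at least 3 Acan UMIs (532, 235, 78 and 220 cells), and bone/stroma cells had at least 1 Runx2 UMI and at most 2 Acan UMIs (45, 39, 26 and 83 cells). A further 277 cells met no gate. The endplate marker Kcnd2, which the gates did not use, was at 69.3 to 1054 CPM (UMIs of the gene in every 1000000 UMIs of the gate and library) in endplate cells and at 2.01 to 71.9 CPM in other cartilage. Col1a1, the main collagen of bone, was at 5674 CPM or more in bone/stroma of every library. In the 3-month mutant, 24 of 39 bone/stroma cells held a UMI of Ptprc or Cdh5, genes of blood and endothelial cells, or at least 2 UMIs of Acta2 against 3 of 45, 2 of 26 and 10 of 83 in the other libraries. The summed level of 4 blood-cell genes (Ptprc, Lyz2, Ighm and Hba-a1) in this gate was 940 CPM in the 3-month mutant, with Hba-a1 at 0, and 16.5 to 147 CPM in the others. Mural genes (Acta2, Myh11 and Rgs5) summed to 799, 8.12, 11.3 and 484 CPM there in the order above. Values of that gate are therefore also given without these cells. Nf1 was at 131 CPM in the 3-month control, 150 CPM in the 3-month mutant, 147 CPM in the 12-16-month control and 125 CPM in the 12-16-month mutant. These 3′ counts need not cover the deleted part of Nf1 and do not check the genotype.

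Wif1 was by far the most counted inhibitor, with 8848 UMIs in passing cells, followed by Sfrp5 with 3479 and Frzb with 2418. Sfrp4 had 447 UMIs, Dkk3 339, Dkk1 72, Sost 49, Sfrp1 40, Dkk2 11 and Sfrp2 5. The 3′ assay counts transcript ends, so these totals are not divided by gene length. In a reference set of 54 cells with Ptprc and with neither Sox9 nor Runx2, which should lack these inhibitors, 419156 UMIs held none of Wif1, Sfrp5, Frzb, Sfrp4, Dkk1, Dkk2, Sfrp2 or Sost. That set held 2 UMIs of Dkk3 and 1 of Sfrp1, at a median of 5041 UMIs a cell. It came from 3 libraries, because the 12-16-month control had no such cell. The inhibitors were unevenly spread over the gates. Other cartilage held 83.2% of the gated Wif1 UMIs, 89.6% of Sfrp5, 84.7% of Dkk3 and 67.9% of Frzb, while bone/stroma held 89.0% of Sfrp4, 80.3% of Dkk1 and 92.1% of Sfrp1. Other cartilage was also the largest gate, with 13811528 UMIs of all genes, against 4483653 in endplate cells and 3330791 in bone/stroma. A share rises with the size of the gate. That of Frzb therefore does not show a higher level in other cartilage than in endplate cells.

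Promoters of the most counted members and of the bone/stroma gene Dkk1 are shown because these genes had unlike distributions over the gates. RefSeq start-region sequences on GRCm38.p6, from 250 bases before to 50 bases after the start, were at hand for 7 of the 10 members. Capitals mark the letters TGTGGT (a RUNX core) and ACAAAG or ACAATG (SOX cores), searched on both strands. The TCF/LEF core CTTTGAT was searched as well, and its first 5 letters are also those of CTTTGT, the reverse complement of ACAAAG. Wif1 lies at chr10:121033754-121034053 on the plus strand, Sfrp5 at chr19:42202203-42202502, Frzb at chr2:80447347-80447646 and Dkk1 at chr19:30549447-30549746, the last 3 on the minus strand.
Wif1: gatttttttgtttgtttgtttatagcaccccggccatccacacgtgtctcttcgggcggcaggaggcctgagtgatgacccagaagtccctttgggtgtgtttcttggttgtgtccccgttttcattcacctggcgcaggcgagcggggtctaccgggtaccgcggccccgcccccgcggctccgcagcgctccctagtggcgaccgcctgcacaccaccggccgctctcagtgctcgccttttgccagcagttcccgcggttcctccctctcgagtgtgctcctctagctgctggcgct
Sfrp5: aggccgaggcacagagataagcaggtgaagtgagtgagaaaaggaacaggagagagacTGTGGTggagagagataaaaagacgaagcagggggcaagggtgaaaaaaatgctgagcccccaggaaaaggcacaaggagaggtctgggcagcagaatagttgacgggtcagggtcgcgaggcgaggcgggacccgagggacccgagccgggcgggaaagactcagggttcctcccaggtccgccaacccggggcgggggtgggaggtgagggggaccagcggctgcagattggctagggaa
Frzb: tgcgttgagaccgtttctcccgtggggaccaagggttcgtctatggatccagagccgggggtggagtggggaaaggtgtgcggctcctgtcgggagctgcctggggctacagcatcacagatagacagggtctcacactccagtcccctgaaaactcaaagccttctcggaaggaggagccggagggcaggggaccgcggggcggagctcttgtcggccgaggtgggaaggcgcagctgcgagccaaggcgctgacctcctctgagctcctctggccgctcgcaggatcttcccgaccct
Dkk1: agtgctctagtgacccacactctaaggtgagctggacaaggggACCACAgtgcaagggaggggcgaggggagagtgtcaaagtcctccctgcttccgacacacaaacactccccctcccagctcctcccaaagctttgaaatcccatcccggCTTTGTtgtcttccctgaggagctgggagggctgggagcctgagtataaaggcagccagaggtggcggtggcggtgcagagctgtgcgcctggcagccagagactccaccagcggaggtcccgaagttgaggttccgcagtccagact
The RUNX core was present once in Sfrp5 and once in Dkk1, and a SOX core once in Dkk1 and once in Dkk2. The windows of Wif1, Frzb, Sfrp2 and Sost held neither, and none of the 7 held the TCF/LEF core. Of all 32851 promoters of the same length, 16.8% held the RUNX core, 28.6% a SOX core and 3.73% the TCF/LEF core. A match of letters is not a bound site.

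Wif1, which binds WNT ligands through its WIF domain, was high in other cartilage and in bone/stroma and low in endplate cells. In other cartilage it was at 552 CPM (95% Poisson interval 535-569) in the 3-month control, 372 (350-394) in the 3-month mutant, 508 (465-554) in the 12-16-month control and 633 (600-668) in the 12-16-month mutant. Endplate cells had 111, 75.5, 54.1 and 110 CPM in the same order. Every library was higher in other cartilage than in endplate cells, and the ranges of these gates did not overlap. In bone/stroma, Wif1 was at 437, 136, 258 and 441 CPM. Without the cells that held Ptprc, Cdh5 or Acta2 it was at 449, 673, 292 and 493 CPM, so the 3-month mutant went from the lowest to the highest library. Intervals here and below cover counting error only. Of other cartilage cells, 77.4%, 63.0%, 70.5% and 66.4% held Wif1, and 46.8%, 36.7%, 45.7% and 49.2% did after each cell was thinned to 2000 UMIs. Before thinning, Wif1 was thus found in more other cartilage cells of every library than any other inhibitor.

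Sfrp5, a secreted Frizzled-related protein, was nearly restricted to cartilage. In other cartilage it was at 256 (245-268), 130 (118-144), 197 (171-227) and 222 (203-243) CPM in the order above. Endplate cells had 140 CPM in the 3-month control and 88.0 CPM in the 3-month mutant, against 3.00 and 14.7 CPM at 12-16 months. Within the endplate the older libraries were both below the younger ones, but the 12-16-month control value rests on 1 UMI in 12 cells. Bone/stroma had 0 to 3.80 CPM, or 6 UMIs in 193 cells.

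Frzb, a WNT-binding protein of cartilage, was counted in both endplate and other cartilage cells, with no common direction between them. In endplate cells it was at 127 (101-159), 201 (185-219), 42.1 (23.0-70.6) and 116 (93.2-144) CPM in the order above. In other cartilage it was at 88.3 (81.8-95.3), 152 (138-166), 164 (140-191) and 144 (128-161) CPM. The ranges overlapped, and the gate with the higher value differed between libraries. The endplate/other cartilage ratios were 1.44 (1.13-1.82), 1.33 (1.17-1.50), 0.256 (0.137-0.443) and 0.807 (0.629-1.03). Of the 14 Frzb UMIs in endplate cells of the 12-16-month control, 92.9% came from 1 cell. Bone/stroma had 1.16 to 9.29 CPM, below both cartilage gates in every library. As a share of all inhibitor UMIs, Frzb made up 32.4%, 54.3%, 40.0% and 47.8% in endplate cells and 9.57%, 22.1%, 18.4% and 14.0% in other cartilage. The 10 members together were at 393, 371, 105 and 244 CPM in endplate cells and at 923, 686, 892 and 1026 CPM in other cartilage. The endplate thus had a lower summed level and a larger part of it from Frzb in every library.

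Dkk3, the divergent Dickkopf, was a low cartilage gene at 19.2, 22.5, 22.1 and 18.0 CPM in other cartilage. It was at 6.45, 4.31, 0 and 1.34 CPM in endplate cells and at 12.7, 6.96, 5.63 and 13.4 CPM in bone/stroma. Other cartilage was the highest of the 3 gates in each library when all gated cells were kept. Without the Ptprc, Cdh5 or Acta2 cells, bone/stroma of the 3-month mutant was at 34.5 CPM, from 6 UMIs in 15 cells, and above other cartilage. The 2 Dkk3 UMIs of the Ptprc+ reference cells mean that it was also counted in cells of another kind.

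**Figure D1:**
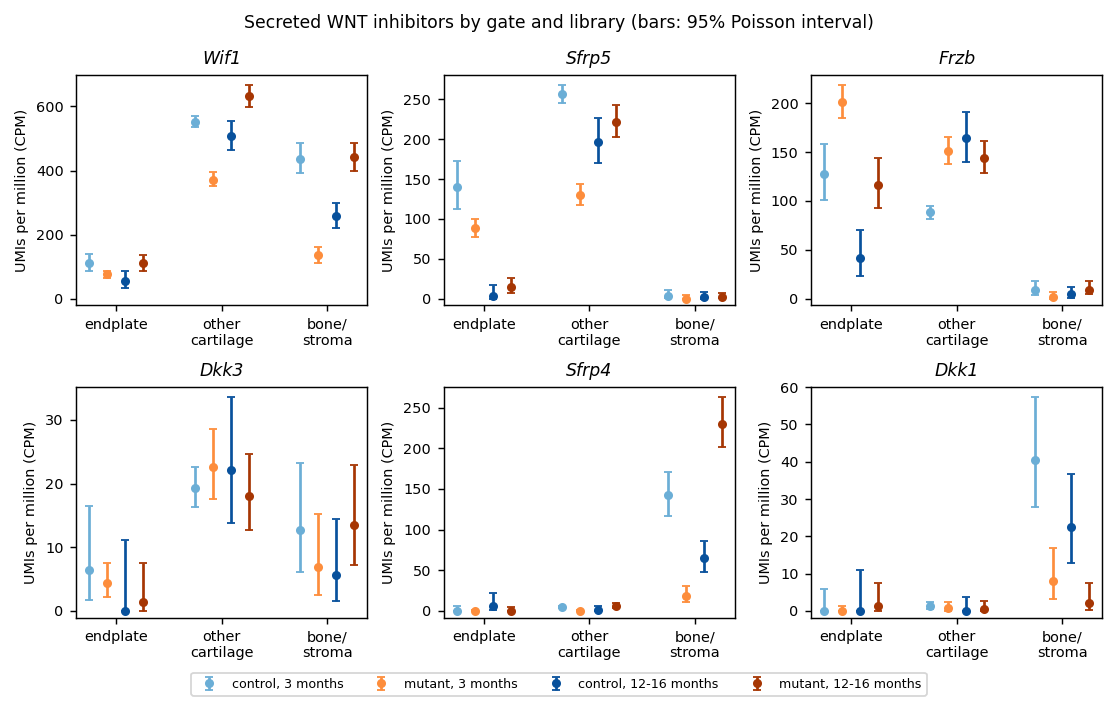
Level of 6 inhibitors (CPM, linear axes that differ between panels) in endplate, other cartilage and bone/stroma cells, 1 point for each of the 4 libraries with its 95% Poisson interval. Wif1, Sfrp5 and Dkk3 sit high in other cartilage, Frzb in both cartilage gates, and Sfrp4 and Dkk1 in bone/stroma. Wif1 is high in other cartilage and in bone/stroma, at 372 to 633 CPM and 136 to 441 CPM.

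Sfrp4, a Frizzled-related protein known for a role in cortical bone, belonged to bone/stroma. It was at 142 (117-171), 18.6 (10.6-30.1), 64.7 (47.4-86.4) and 230 (201-262) CPM there. In other cartilage it was at 4.45, 0, 1.01 and 5.67 CPM. Of the 34 UMIs of the 3-month control, 32 came from 1 cell that also held 206 Col1a1 and 68 Bglap UMIs. In the 12-16-month mutant, 11 of 12 came from 1 cell with 202 Col10a1 and 20 Ihh UMIs and none of Col1a1 or Bglap. Bone/stroma was above both other gates in every library. Without the Ptprc, Cdh5 or Acta2 cells it was at 146, 80.5, 51.5 and 257 CPM, so the lowest library was then the 12-16-month control and not the 3-month mutant.

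Dkk1, an LRP6-binding inhibitor, was at 40.5 (27.7-57.2), 8.12 (3.27-16.7), 22.5 (12.9-36.6) and 2.06 (0.250-7.46) CPM in bone/stroma. All 7 UMIs of the 3-month mutant came from 1 cell. Other cartilage had 0 to 1.31 CPM, and endplate cells had 1 UMI in all. Sfrp1 was at 8.87, 0, 4.22 and 25.8 CPM in bone/stroma, with 3 UMIs in other cartilage and none in endplate cells. Dkk2, the relative of Dkk1, had 8 of its 11 UMIs in bone/stroma of the 3-month control. Sfrp2 had 5 UMIs in all, too few to give a distribution.

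The differences between gates were tested with the 4 libraries as replicates and library as a block, by edgeR's quasi-likelihood test over 9828 genes with Benjamini-Hochberg adjustment. Since the libraries differ in genotype and age, the p-values measure the spread of a gate difference over these 4 libraries. Of the 10 members, 5 had enough counts to be tested (Wif1, Sfrp5, Frzb, Dkk3 and Sfrp4). Sfrp4 passed the filter on low counts through bone/stroma alone, the gate where it is high, so its calls are no support for that difference and its fitted folds depend on the prior count. Dkk3 and Sfrp5 would not have passed without other cartilage, where they are high, so their calls against that gate are no support either. Between endplate and other cartilage, 3 of the 5 were lower in endplate cells and none was higher, where 9.78% of all tested genes were called lower and 8.72% higher. Wif1 was lower by a log2 fold of -2.70 ± 0.28 (SE; adjusted p = 0.00032) and Dkk3 by -2.67 ± 0.47 (adjusted p = 0.0038). The Dkk3 call is no support, although it held under every alternative that tested it. That of Wif1 was lost when cells were thinned to 2000 UMIs before gating (-1.21, adjusted p = 0.15). The endplate gate then held only 4, 54, 0 and 2 cells in the order above, so this fit differed in cells as well as in depth. Sfrp5 was lower by -2.16 ± 0.62 (adjusted p = 0.036), a call that is no support either. It was lost without the 3-month control (-2.74, adjusted p = 0.078), the 12-16-month control (-1.68, adjusted p = 0.13) or the 12-16-month mutant (-1.65, adjusted p = 0.18). Over 12 alternatives its adjusted p ran from 3.36e-06 to 0.59. The fibroblast genes Dcn, Gsn and Dpt, which surface cartilage also expresses, summed to 8000 to 17030 CPM in other cartilage and 306 to 878 CPM in endplate cells, where Dpt was at 0 in 3 of 4 libraries, and their part in these differences was not tested. Frzb differed by -0.35 ± 0.42 (adjusted p = 0.60), which did not pass the test. Sfrp4, with 2 UMIs in all endplate cells, was not compared here.

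Between bone/stroma and other cartilage, 1 of the 5 tested members was higher in bone/stroma and 4 were lower, where 15.0% of all tested genes were called higher and 18.7% lower. Sfrp4 was called higher (adjusted p = 2.97e-05), a call that is no support for the reason given above. Its level was 31.9 (21.6-48.3) times that of other cartilage in the 3-month control and 40.6 (22.8-79.7) times in the 12-16-month mutant. It was at least 18.9-fold higher in the 3-month mutant, against a floor of 3 counts, and the 12-16-month control had 46 UMIs against 1. Sfrp5 was lower by -7.12 ± 0.90 (adjusted p = 0.00017) and Frzb by -4.71 ± 0.56 (adjusted p = 0.00012). The Frzb call held under every alternative. That of Sfrp5 did too, but it is no support for the reason given above. Wif1 was lower by -0.96 ± 0.27 (adjusted p = 0.018) and Dkk3 by -1.25 ± 0.40 (adjusted p = 0.036), and both were unstable. Without the bone/stroma cells that held Ptprc, Cdh5 or Acta2, Wif1 differed by -0.30 (adjusted p = 0.32) and Dkk3 by -0.48 (adjusted p = 0.29). The Wif1 call was also lost without the 12-16-month control (adjusted p = 0.059) or the 12-16-month mutant (adjusted p = 0.083), with a range from 0.0029 to 0.97 over 12 alternatives. That of Dkk3 was lost without any of the 4 libraries (adjusted p = 0.063 to 0.11), with a range from 0.012 to 0.29 over 11 alternatives.

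Between bone/stroma and endplate cells, Sfrp4 and Wif1 were higher in bone/stroma and Frzb and Sfrp5 lower, where 14.2% of all tested genes were called higher and 15.5% lower. Wif1 differed by 1.74 ± 0.28 (adjusted p = 0.0010). Sfrp4 was called higher (adjusted p = 5.74e-05), again no support for the same reason. The endplate had 0 UMIs of it in 3 of 4 libraries. Sfrp4 was there at least 29.3-fold, 17.2-fold and 57.3-fold higher in the 3-month control, the 3-month mutant and the 12-16-month mutant. In the 12-16-month control the ratio was 10.8 (2.82-91.7), from 46 and 2 UMIs. Frzb differed by -4.36 ± 0.57 (adjusted p = 0.00027) and Sfrp5 by -4.95 ± 0.96 (adjusted p = 0.0031). Dkk3, at 1.42 ± 0.53 (adjusted p = 0.070), did not pass. The calls of Wif1 (1.23, adjusted p = 0.13) and Frzb (-1.35, adjusted p = 0.31) were lost in thinned cells, with the few endplate cells given above. Endplate cells thus had the least Wif1 of the 3 gates, and bone/stroma the least Frzb and Sfrp5.

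**Figure D2:**
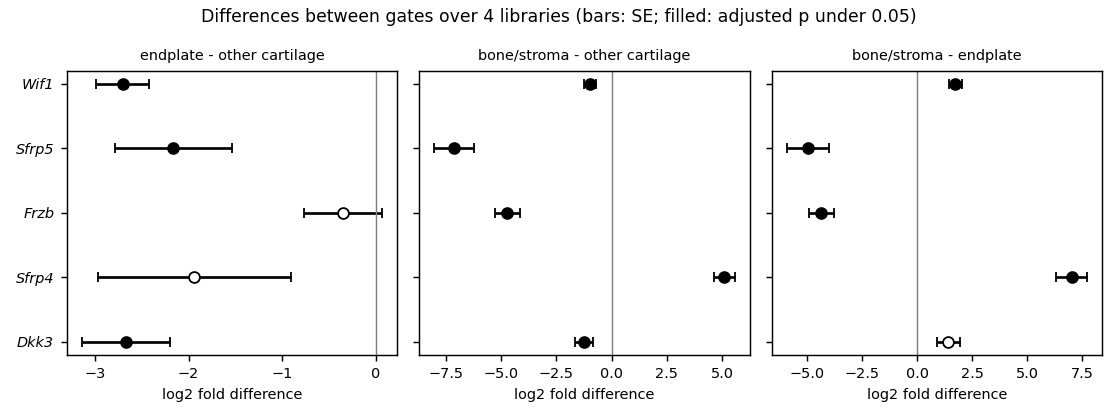
Log2 fold (edgeR fit, bars of 1 SE) of the 5 tested inhibitors in the 3 gate differences, with filled points for an adjusted p under 0.05. Sfrp4 lies above 0 in both differences of bone/stroma, at a distance that depends on the prior count, and Frzb lies near 0 between endplate and other cartilage at -0.35.

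Within the gates, the inhibitors were unevenly spread over cells that were split by genes that are not members. In other cartilage, surface-high cells held at least 3 UMIs of Prg4, Smoc2 and Cilp2 together (466, 184, 72 and 191 cells), genes of the joint surface zone such as Prg4, which encodes lubricin. Wif1 was at 572, 477, 551 and 759 CPM in these cells and at 379, 104, 77.3 and 116 CPM in the surface-low cells (66, 51, 6 and 29 cells). The surface-high value was 1.51, 4.57, 7.13 and 6.55 times the surface-low value. Dkk3 had 274 of 276 UMIs in surface-high cells, which were also most cells of the gate. It was at 21.4, 30.5, 24.4 and 22.3 CPM there and at 0, 2.32, 0 and 0 CPM in surface-low cells. In the 12-16-month control, with 6 surface-low cells, the interval of the ratio began at 0.549 and included 1. Frzb went the other way, at 87.0, 65.0, 162 and 131 CPM in surface-high cells and 99.8, 372, 188 and 198 CPM in surface-low cells. The surface-high/surface-low ratio of Frzb was 0.175 (0.142-0.213) in the 3-month mutant and 0.662 (0.512-0.864) in the 12-16-month mutant, while the intervals of both controls included 1. Sfrp5 had no common direction, at 238, 156, 211 and 259 CPM against 415, 64.9, 55.2 and 72.4 CPM.

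Other cartilage was also split by at least 1 UMI of Adamtsl2, a secreted matrix protein gene. Adamtsl2 was chosen with earlier results of these data known, in which cells were described by Sfrp5 and Adamtsl2 together. Higher Sfrp5 in Adamtsl2+ cells is therefore no support for a link between the 2 genes. Sfrp5 was at 597, 193, 393 and 534 CPM in Adamtsl2+ cells (139, 30, 18 and 45 cells) and at 133, 121, 148 and 124 CPM in the others. The ratios were 4.48, 1.59, 2.67 and 4.30, all above 1. Wif1 had ratios of 1.22, 0.756, 1.43 and 1.46, with no common direction. Dkk3 had ratios of 0.513, 0.667, 0.188 and 0.273, all below 1, with intervals that excluded 1 in the 3-month control and the 12-16-month mutant.

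Sfrp5 and Wif1 were found in the same other cartilage cells. Of the cells with Sfrp5, 96.6%, 97.1%, 96.0% and 94.0% also held Wif1, against 65.5%, 49.1%, 58.5% and 54.2% of the cells without Sfrp5. The cells with Sfrp5 were not the deeper ones, with medians of 11626.5, 9993, 9229 and 6858 UMIs against 13122.5, 11806, 11210 and 8031. The Wif1 level was 2.48, 4.10, 2.75 and 2.27 times higher in cells with Sfrp5 than in cells without. In the other direction, only 47.8%, 44.6%, 43.6% and 43.2% of Wif1+ cells held Sfrp5, so that Sfrp5+ cells were close to a subset of the Wif1+ cells. Frzb had no such relation, at 0.684, 0.361, 1.36 and 0.801 times its level in cells without Sfrp5.

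In the endplate, Frzb was concentrated in the cells with Col10a1, the collagen of hypertrophic cartilage. Frzb was at 289, 749 and 524 CPM in the 3, 12 and 6 Col10a1+ endplate cells of the 3-month control, the 3-month mutant and the 12-16-month mutant, and at 79.4, 142 and 47.0 CPM in the Col10a1-negative ones. The ratios were 3.64, 5.26 and 11.2. In the 3-month control, 1 Col10a1+ cell held most of these Frzb UMIs. Without that cell the whole endplate gate of this library was at 79.2 CPM, so its ratio of 3.64 rests on 1 cell. In the 12-16-month mutant, 1 Col10a1+ cell also held most of the Frzb UMIs behind 524 CPM. Without it the whole endplate gate of that library was at 75.4 CPM, against 116 CPM. The 12-16-month control had no Col10a1+ endplate cell. Sfrp5 was at 0 in the Col10a1+ cells of the 3-month mutant and at 97.5 CPM in the negative ones. In the 3-month control it was at 91.7 CPM, from 13 UMIs, and at 155 CPM, with a ratio of 0.593 (0.302-1.08). In the 12-16-month mutant it was at 0 and 17.2 CPM, and the interval of the ratio reached 2.34. Wif1 had no common direction, at 7.06, 33.4 and 175 CPM in Col10a1+ cells, where the last value came from 1 cell, against 142, 80.0 and 98.6 CPM.

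In bone/stroma, Sfrp4 and Sfrp1 were found in other cells than Dkk1. Cxcl12-high cells (at least 5 Cxcl12 UMIs; 22, 11, 11 and 51 cells) stand for marrow stroma, which makes the chemokine Cxcl12 in quantity. Cells with fewer Cxcl12 UMIs and at least 2 of Sp7, Phex and Dmp1 together (13, 2, 12 and 12 cells) stand for osteoblast-lineage cells. Sfrp4 was at 212, 106, 227 and 383 CPM in Cxcl12-high cells and at 79.9, 0, 4.37 and 74.0 CPM in the Sp7/Phex/Dmp1-positive cells. Sfrp1 was at 17.5, 0, 15.5 and 46.9 CPM in Cxcl12-high cells and had 1 UMI in the others. Dkk1 was at 85.8, 204, 35.0 and 7.05 CPM in Sp7/Phex/Dmp1-positive cells and at 7.48, 0, 0 and 0 CPM in Cxcl12-high cells. The value of 204 CPM rests on 1 of 2 cells. Each of these 3 inhibitors was thus higher on the same side in every library in which it was counted in this gate. Wif1 was high on both sides, at 526, 716, 305 and 643 CPM in Cxcl12-high cells and at 328, 613, 271 and 254 CPM in the Sp7/Phex/Dmp1-positive cells, and the intervals of the 3-month control and the 12-16-month mutant put it higher in Cxcl12-high cells. The remaining 26 bone/stroma cells of the 3-month mutant had Wif1 at 1.44 CPM.

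**Figure D3:**
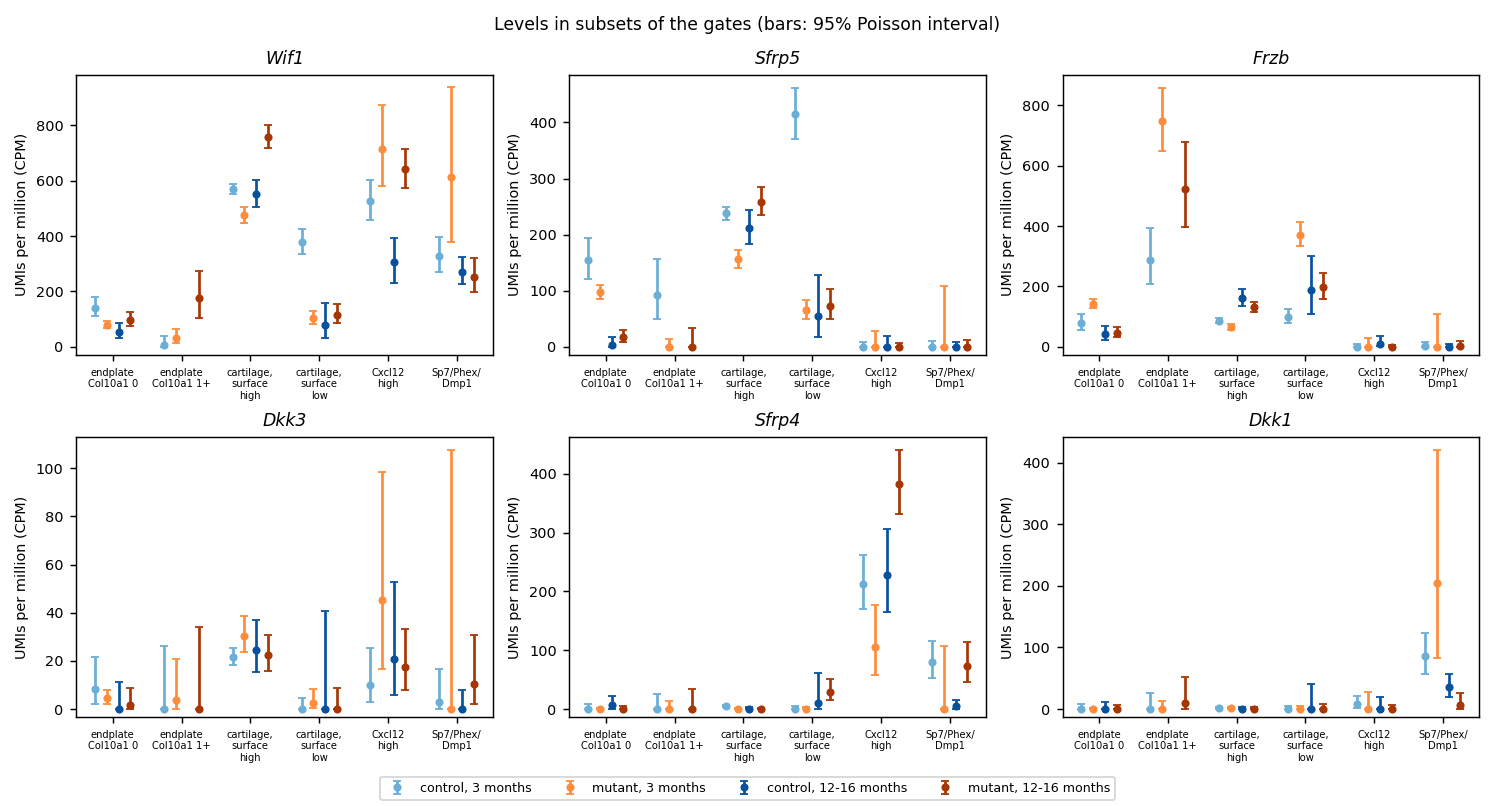
Levels (CPM, linear axes that differ between panels) of 6 inhibitors in cells split inside each gate by genes that are not members, 1 point for each library with its 95% Poisson interval. Frzb reaches 289 to 749 CPM in Col10a1+ endplate cells, the 289 CPM mostly from 1 cell. Wif1 reaches 477 to 759 CPM in surface-high cartilage, and Dkk1 and Sfrp4 lie in different bone/stroma cells.

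Sost, the osteocyte inhibitor of LRP5 and LRP6, was not counted in any of the 193 bone/stroma cells, which allows a share of cells with a UMI of up to 1.55%. That limit covers counting error over the pooled cells of 4 libraries, 39 of them with Ptprc, Cdh5 or Acta2, and does not limit the share of bone cells that express Sost. Its 49 UMIs lay in 8 cells, all gated as cartilage, and 1 other cartilage cell of the 3-month mutant held 27 of them. That cell also held 103 Acan, 48 Prkg2, 15 Phex and 9 Mepe UMIs. All 8 cells held Ihh, Prkg2 and Runx2, 7 held Col10a1, and none held Col1a1 or Dmp1. Phex was in 6 of them, Sp7 and Bglap in 4 each and Mepe in 2. Ihh, Prkg2 and Col10a1 are genes of prehypertrophic and hypertrophic chondrocytes. Col1a1, Dmp1, Phex, Sp7, Bglap and Mepe served as genes of osteoblasts and osteocytes. The paper also reports OSX, the product of Sp7, in hypertrophic chondrocytes of this lineage. The genes counted in these cells therefore do not show a bone identity. These genes were set beside Sost after its cells were seen. In other cartilage, all 41 Sost UMIs were in surface-low cells.

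With 1 library for each genotype and age, mutant and control could not be tested at either age, and a genotype term pooled over the ages was not fitted. Ratios are given with exact intervals for counting error. In other cartilage, 2 of the 6 inhibitors with at least 20 UMIs in both 3-month libraries together were past 2-fold between mutant and control (Sfrp4 and Sost, each mostly counted in 1 cell of a library), where 9.90% of all such genes were. At 12-16 months, 0 of 4 were past 2-fold, where 8.71% of all such genes were. Between ages, 1 of 5 was past 2-fold in control (Sfrp4), where 12.4% of genes were, and 1 of 5 in mutant (Sost), where 7.90% were.

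In other cartilage, the ratios of the abundant inhibitors lay on opposite sides of 1 at the 2 ages. At 3 months, the mutant/control ratio was 0.673 (0.630-0.719) for Wif1, 0.509 (0.455-0.567) for Sfrp5 and 1.72 (1.52-1.93) for Frzb. At 12-16 months the ratios were 1.25 (1.12-1.38), 1.13 (0.952-1.34) and 0.879 (0.725-1.07). Wif1 and Sfrp5 were thus lower and Frzb higher in the 3-month mutant, and at 12-16 months only the Wif1 interval lay off 1. The 3-month log2 ratio of Sfrp5, -0.98, was past 2-fold with TMM scaling (-1.01), stricter gates (-1.05) and thinned cells (-1.08), and so were those of Wif1 (-1.07) and Frzb (1.08) in thinned cells. Thinned cells were gated anew, and the 3-month mutant then had 54 endplate and 231 other cartilage cells, against 142 and 235 before. The 3-month control had 4 and 358, against 30 and 532. The thinned ratios thus compare other sets of cells, not the same cells at equal depth. The cell with most UMIs of the gene itself was also left out of each library. The Sfrp5 ratio at 12-16 months was then 1.23 (1.01-1.49) and that of Wif1 1.42 (1.26-1.59). Dkk3 had ratios of 1.17 (0.867-1.57) and 0.812 (0.468-1.44), so that a difference was not detectable at this depth.

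The Frzb ratio at 3 months depended on which cartilage cells were compared. It was 3.73 (2.90-4.84) in surface-low cells and 0.747 (0.618-0.898) in surface-high cells. Surface-low cells were 51 of 235 in the mutant and 66 of 532 in the control. Wif1 was lower in the mutant in both kinds, at 0.834 (0.778-0.893) in surface-high and 0.275 in surface-low cells, and so was Sfrp5, at 0.655 and 0.157. The Sfrp5 difference was not alike in all cartilage cells. It was at 193 CPM in the mutant and 597 CPM in the control in Adamtsl2+ cells, but at 121 and 133 CPM in Adamtsl2-negative cells. In endplate cells, the ratio at 3 months was 0.678 (0.514-0.904) for Wif1, 0.628 (0.489-0.811) for Sfrp5 and 1.58 (1.25-2.03) for Frzb. At 12-16 months it was 2.03 (1.21-3.59) for Wif1 and 2.77 (1.56-5.27) for Frzb, against a control of 12 cells in which 1 cell held 83.3% of the Wif1 UMIs.

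In bone/stroma, the mutant/control ratio of Wif1 was 0.311 (0.250-0.384) at 3 months and 1.71 (1.44-2.05) at 12-16 months. Without the cells that held Ptprc, Cdh5 or Acta2 it was 1.50 (1.20-1.85) and 1.69 (1.42-2.02), so the direction at 3 months turned. Sfrp4 was at 0.131 (0.0723-0.222) and 3.55 (2.58-4.99), and without those cells at 0.552 (0.293-0.966) and 4.99 (3.44-7.48). Dkk1 was at 0.200 (0.0746-0.462) and 0.0916 (0.0102-0.390), and without those cells at 0.967 (0.360-2.23) and 0.0896. At 12-16 months, Sfrp4 was higher and Dkk1 lower in the mutant library with and without these cells. The bone/stroma of that mutant held 51 Cxcl12-high and 12 Sp7/Phex/Dmp1-positive cells, against 11 and 12 in the control. Within Cxcl12-high cells the 12-16-month ratio was 1.68 (1.21-2.39) for Sfrp4, 2.11 (1.59-2.83) for Wif1 and 3.03 (0.919-15.7) for Sfrp1. Within Sp7/Phex/Dmp1-positive cells it was 16.9 (4.13-149) for Sfrp4, from 21 and 2 UMIs, 0.935 (0.689-1.26) for Wif1 and 0.201 (0.0225-0.856) for Dkk1. The Sfrp4 ratio thus stayed above 1 and that of Dkk1 below 1 within these cells, with other sizes than in the whole gate. Sfrp1 had a ratio of 6.11 (1.86-31.6) at 12-16 months, from 25 and 3 UMIs, and at 3 months was at least 2.55-fold lower in the mutant, which had no UMI (floor of 3 counts a library). Without the Ptprc, Cdh5 or Acta2 cells that mutant had 15 cells left, the interval of the ratio reached 3.07 and no bound remained.

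**Figure D4:**
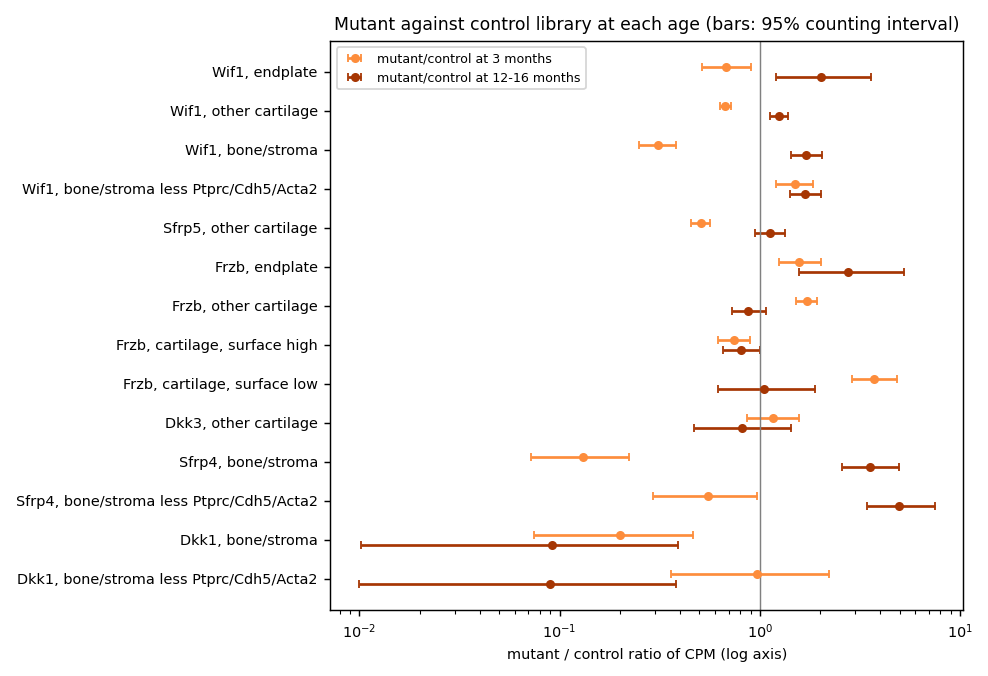
Mutant/control ratio of CPM (log axis, 95% counting intervals) of inhibitors by gate at 3 months and at 12-16 months, 1 library each. Wif1 lies below 1 at 3 months and above 1 at 12-16 months in all 3 gates, at 0.673 and 1.25 in other cartilage, but at 1.50 at 3 months in bone/stroma without Ptprc, Cdh5 or Acta2 cells.

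With age, Wif1 and Sfrp5 in other cartilage were higher in the older mutant library, with 12-16-month/3-month ratios of 1.70 (1.57-1.84) and 1.71 (1.49-1.95). In control the ratios were 0.921 (0.838-1.01) and 0.770 (0.661-0.892). Frzb had ratios of 0.951 (0.821-1.10) in mutant and 1.86 (1.55-2.21) in control. The mutant value of Frzb joined opposite directions, 2.02 (1.63-2.51) in surface-high and 0.532 (0.412-0.680) in surface-low cells. In control, Wif1 and Sfrp5 were at 0.964 (0.877-1.06) and 0.888 (0.760-1.03) in surface-high cells. In surface-low cells, of which the older control had 6, they were at 0.204 (0.0814-0.426) and 0.133 (0.0430-0.314). In mutant, the ratios of surface-low cells were 1.11 (0.765-1.59) for Wif1 and 1.12 (0.691-1.77) for Sfrp5, with intervals that included 1. In endplate cells Sfrp5 was lower in the older library of both genotypes, with ratios of 0.0214 (0.000536-0.122) in control and 0.167 (0.0824-0.304) in mutant. The 3-month libraries enter both the genotype and the age ratios, so these are not independent.

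The genes whose levels followed each inhibitor most closely over the 12 library and gate sums were found by Pearson's r of log2(CPM + 1) among 9510 genes. The sums share libraries and gates, and the values are a description. Wif1 was nearest to Scx (r = 0.97) and Pax9 (r = 0.96), transcription factor genes of tendon and of the sclerotome, and to Phlda3 (r = 0.96). Sfrp5 was nearest to Klf2, Celf4 and Clic4 (r = 0.97 each), and Frzb to Cst3 and Agpat4 (r = 0.98 each) and Sox5os4 (r = 0.97). Dkk3 was nearest to Ube2r2 and Rasa4 (r = 0.96 each) and Crip2 (r = 0.95), and Sfrp4 to Svep1, Rnf150 and B2m (r = 0.96 each).

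Other genes of the WNT pathway were read from a list of 76, of which 43 had enough counts to be tested. Between endplate and other cartilage, 12 were higher and 4 lower in endplate cells, where 8.72% and 9.78% of all tested genes were, with a median log2 fold of 0.50 against -0.01 over all tested genes. Among 6 tested target genes of the pathway, 4 were higher and 1 lower. Lef1, a transcription factor of the pathway and its target, was at 329, 117, 108 and 173 CPM in endplate cells and at 7.07, 4.90, 19.1 and 16.1 CPM in other cartilage (log2 fold 3.92 ± 0.46, adjusted p = 0.00051). The R-spondins, secreted proteins that strengthen WNT signals, included Rspo3 (2.92 ± 0.47) and Rspo4 (2.37 ± 0.40), both higher in endplate cells with adjusted p of 0.0022 and 0.0074. Rspo4 would not have passed the filter without endplate cells, where it is high, so its calls against that gate's levels are no support. Ror1, a WNT co-receptor, was higher by 2.75 ± 0.39 (adjusted p = 0.0012). The R-spondin receptor Lgr6 was lower by -5.23 ± 0.69 (adjusted p = 0.00082) and the Frizzled receptor Fzd8 by -2.01 ± 0.26 (adjusted p = 0.00084). Lgr6 would not have passed the filter without other cartilage, where it is high, so its calls against that gate are no support. Myc (-1.55) and the co-receptor Lrp5 (-0.93, adjusted p = 0.036) were the other genes lower in endplate cells.

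Between bone/stroma and other cartilage, 14 of the 43 were higher and 8 lower, where 15.0% and 18.7% of all tested genes were, with a median of 0.22 against -0.0028 over all tested genes, and among the 14 tested receptors 6 were higher and 4 lower. The share called lower was near that of all genes. Igfbp4, a secreted protein that also restrains WNT signals, was at 1622, 657, 1192 and 2292 CPM in bone/stroma (7.18 ± 1.06, adjusted p = 0.00047). Lrp4, the receptor that presents sclerostin, was higher by 5.50 ± 0.64 (adjusted p = 0.00011), as were Fzd5 (3.41) and Fzd1 (3.19). Wnt11 (-5.52), Lgr6 (-4.21) and Fzd9 (-3.62) were lower, and Rspo4 had no UMI in bone/stroma of any library. The Lgr6 call is again no support. Between bone/stroma and endplate cells, 7 of the 43 were higher and 11 lower, where 14.2% and 15.5% of all tested genes were, with a median of -0.07 against 0.01. The share called higher was near that of all genes. Igfbp4 (9.15), Fzd5 (4.45), Lrp4 (3.64) and Porcn (2.59), the enzyme that lipidates WNT ligands, led the higher genes. Besides Rspo4, Wnt11 (-6.83), Fzd9 (-4.10) and Notum (-3.76), a secreted enzyme that inactivates WNT ligands, led the lower ones. Igfbp4, Fzd5, Fzd1 and Porcn would not have passed the filter without bone/stroma, where they are high. Their calls are therefore no support, and folds against sums without UMIs depend on the prior count.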

How the data were processed

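Single-cell RNA-sequencing was performed on tdTom+ cells of 4 libraries, 1 for each genotype and age. The authors deposited raw UMI counts per gene and barcode, made per the labels with Cell Ranger 8.0.0 on mm10. The paper describes SoupX correction of free RNA, and whether the deposited counts precede it is not given in the sources used here. The counts are whole numbers. Members and gene lists were chosen with earlier results of these data known.

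Passing cells were gated on UMI counts, endplate first, and counts were summed per library and gate (12 sums). Gate differences were fitted with edgeR 4.0.16 in R 4.3.3 (TMM, filterByExpr, quasi-likelihood test, library as block) and called at an adjusted p under 0.05, and the SE of a log2 fold was its size divided by the square root of the F statistic. Size factors of DESeq2 1.42.0 and the test of its Python version, pydeseq2 0.5.4, served as alternatives. The steps were tested on simulated data. Levels are CPM with exact Poisson intervals, ratios have exact conditional binomial intervals, both at 95%. Ratios past 2-fold were counted for genes with at least 20 UMIs in both libraries together. Doublets marked by Scrublet (scanpy 1.11.5), 1 to 12 a library, were kept and left out as an alternative. Total UMIs of passing cells were 9429264 and 7287981 at 3 months and 2154537 and 4398951 at 12-16 months, control before mutant, so the 12-16-month control is the least precise.

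Named genes were all 10 members, for each with at least 200 gated UMIs the 3 genes of highest Pearson r, and up to 4 called genes of largest fold in each direction from the WNT list. Promoters were read from RefSeq tables (GRCm38.p6). Barcodes that did not pass entered no comparison. Alternatives were DESeq2 size factors, no filter, no library block, leaving out each library, stricter gates, thinning, no doublets and no cells with Ptprc, Cdh5 or Acta2.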

Additional observations from a re-analysis of the deposited data

Results flagged for a closer look

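The mutant/control ratio of Wif1 lay on opposite sides of 1 at the 2 ages in each gate. It was 0.678 and 2.03 in endplate cells, 0.673 and 1.25 in other cartilage and 0.311 and 1.71 in bone/stroma at 3 and 12-16 months. The ratio of Sfrp4 in bone/stroma was 0.131 at 3 months and 3.55 at 12-16 months. Sfrp1 in bone/stroma had a ratio of 6.11 at 12-16 months, while the 3-month mutant had no UMI and the 3-month control 7. With 1 library for each genotype and age, the difference between ages was not tested for any of them. Without the bone/stroma cells that held Ptprc, Cdh5 or Acta2, the 3-month ratio in that gate was 1.50 for Wif1 and 0.552 for Sfrp4. Within Cxcl12-high cells, the 12-16-month ratio was 1.68 (1.21-2.39) for Sfrp4 and 3.03 (0.919-15.7) for Sfrp1.

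Barcodes that did not pass the cell filter also held inhibitor UMIs, above the 3 counts used as a floor. In the 3-month control, 205 such barcodes held 100 UMIs of Wif1, 15 of Dkk1 and 4 of Sfrp5, and 14 of the Dkk1 UMIs were in 1 barcode. The 28 such barcodes of the 12-16-month control held 5 Wif1 UMIs. The 124 of the 12-16-month mutant held 29 of Wif1, 8 of Sfrp4 and 5 of Frzb.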

How the results depend on the processing

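Between endplate and other cartilage, 1818 genes were called, against 365 when cells were thinned to 2000 UMIs before gating, 1091 under stricter gates and 832 to 1920 when each library was left out. Thinned, 1027 rather than 3310 genes were called between bone/stroma and other cartilage (2374 to 3424 without each library) and 516 rather than 2917 between bone/stroma and endplate cells (2064 to 2763). Thinning left 4 endplate cells in the 3-month control and 2 in the 12-16-month mutant. The 12-16-month control had none, so that fit had 11 sums. Its log2 folds changed sign for Sfrp4 between endplate and other cartilage (0.92) and for Wif1 between bone/stroma and other cartilage (0.021). Frzb between endplate and other cartilage ran from -0.60 to 0.06 when each library was left out, the last without the 12-16-month control. Without the library block, the Sfrp5 call between endplate and other cartilage (adjusted p = 0.063, edgeR) and the Wif1 call between bone/stroma and other cartilage (adjusted p = 0.086) were lost.

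With a minimum of 50 UMIs, 695 rather than 1235 genes were past 2-fold between mutant and control at 3 months and 366 rather than 880 at 12-16 months (513 thinned). Between ages they numbered 803 rather than 1491 in control and 423 rather than 877 in mutant. The other subsets below were added after seeing the data. The log2 ratio of mutant to control at 3 months changed sign for Frzb in surface-high cartilage (-0.42) and, in bone/stroma, for Dkk1 in Sp7/Phex/Dmp1-positive cells (1.25). That of Wif1 was 0.58 without Ptprc, Cdh5 or Acta2 cells, 0.45 in Cxcl12-high cells and 0.90 in Sp7/Phex/Dmp1-positive cells, and -0.10 in the last at 12-16 months. Between ages in bone/stroma, Sfrp4 in control was at 0.10 in Cxcl12-high cells, and Wif1 in mutant at -0.45, -0.16 and -1.27 in these 3 sets. The cause was not tested. Gate differences were paired within libraries by the block. For genotype and age, no paired analysis was possible because each has 1 library. Of 431 values under alternatives, 328 were classed as the same. For gate differences of members this meant the same direction and side of the threshold. For ratios of members it meant a value inside the main counting interval, and for numbers of genes a similar number. Libraries of 135 to 717 cells limit the scarce members.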
